A study of Mus musculus with 12 samples.

Results

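A set of 9 genes of insulin signalling and glucose transport was followed in 3T3-L1 mouse preadipocytes, an established line that can be turned into fat cells in culture, before and after culture for beige differentiation, in a control line and in a line that overexpressed LIGHT. LIGHT is the cytokine of the tumour necrosis factor family encoded by Tnfsf14. The 9 genes, Insr, Irs1, Irs2, Irs3, Pik3r1, Akt2, Tbc1d4, Slc2a4 and Slc2a1, were a fixed list matched by symbol. The list was chosen with earlier results of these data known. All 9 were among the 18255 genes listed in the tables, and 8 of them were among the 12993 genes with enough counts to be tested; Irs3 was not. There were 4 groups of 3 libraries, namely undifferentiated control, undifferentiated LIGHT, differentiated control and differentiated LIGHT. Undifferentiated cells were kept in high-glucose medium with serum. The differentiated groups of both lines were given a cocktail for 48 h that held insulin (5 µg/ml), dexamethasone (2 µg/ml), IBMX (0.5 mM), indomethacin, rosiglitazone (1 µM) and T3, the thyroid hormone triiodothyronine (1 nM). Until harvest they were then kept with insulin, T3 and rosiglitazone, so insulin itself was in their medium. The sources used here do not give the day of harvest, the vector behind the overexpression, or whether the line was 1 clone. The labels do not say whether a group's 3 libraries were grown as separate cultures, so the p-values speak only of the spread between these samples, which may be technical.

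Insulin binds its receptor, a tyrosine kinase at the cell surface, which phosphorylates the insulin receptor substrates (IRS). These adaptors recruit phosphoinositide 3-kinase through its regulatory subunit, the lipid it makes brings the kinase AKT to the membrane, and AKT2 phosphorylates AS160, the product of Tbc1d4, which otherwise holds vesicles with the transporter GLUT4 inside the cell. Fat and muscle cells take up glucose in response to insulin through GLUT4 (Slc2a4), whereas GLUT1 (Slc2a1) carries glucose into most cell types without the need for insulin. The measurements here are of RNA, and say nothing of phosphorylation, of where GLUT4 lay in the cell or of glucose uptake.

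The upstream sequences of the 3 IRS genes are shown because these genes encode alternative adaptors for the same receptor. All 3 had more counts after differentiation, though Irs3 had few counts and was not tested. RefSeq promoter entries (GRCm38.p6) matched 7 of the 9 members, with 11 windows; Insr and Slc2a4 had none in the table used here. Each sequence is the 250 bases before the annotated start, on the gene's strand, with capitals at every match to 1 of 6 short motifs on either strand. The Irs1 window is at chr1:82291440-82291689, the Irs2 window at chr8:11008930-11009179 and the Irs3 window at chr5:137645715-137645964, all on the minus strand.
Irs1: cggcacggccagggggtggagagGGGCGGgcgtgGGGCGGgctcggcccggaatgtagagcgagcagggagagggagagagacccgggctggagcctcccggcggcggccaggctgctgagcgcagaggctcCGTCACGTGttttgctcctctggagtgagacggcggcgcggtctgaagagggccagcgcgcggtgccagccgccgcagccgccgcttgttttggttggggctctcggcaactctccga
Irs2: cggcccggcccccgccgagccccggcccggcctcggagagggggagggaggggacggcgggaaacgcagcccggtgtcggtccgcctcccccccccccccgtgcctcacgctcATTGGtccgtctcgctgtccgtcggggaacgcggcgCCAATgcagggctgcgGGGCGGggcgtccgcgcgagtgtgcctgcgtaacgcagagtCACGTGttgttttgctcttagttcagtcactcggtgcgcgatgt
Irs3: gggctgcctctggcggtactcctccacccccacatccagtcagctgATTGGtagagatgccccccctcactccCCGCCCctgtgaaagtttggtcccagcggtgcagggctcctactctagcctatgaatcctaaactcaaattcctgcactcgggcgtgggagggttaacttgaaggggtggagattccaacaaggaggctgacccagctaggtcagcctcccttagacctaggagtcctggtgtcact
The motifs were the E-box (CACGTG), the GC box (GGGCGG), the CCAAT box (CCAAT), the TATA box (TATAAA), the core of the cyclic AMP response element (TGACG) and the FOXO site (GTAAACA). Irs1 and Irs2 each held 1 E-box, with its first base 115 bases before the start in Irs1 and 44 in Irs2. In Irs1 the TGACG match on the opposite strand runs into the E-box, so the 2 are printed as 1 run of capitals. No other window of the members held an E-box, and 6.02% of 32851 mouse windows of this length did. The Irs3 window held a GC box and a CCAAT match, both on the opposite strand. GC boxes also lay in the Irs1 and Irs2 windows, and CCAAT matches in the Irs2 window. On either strand, 32.7% of all windows held a GC box and 33.8% a CCAAT match. A match is a string of letters, and binding was not measured.

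Libraries held 16334079 to 19686675 expected counts. A count of 3 in a single library corresponded to 0.152 to 0.184 CPM (counts scaled to library size, here the library total). The floor used for ratios was 3 counts summed over the libraries of a group. Tnfsf14 counts were 0, 1 and 0 in undifferentiated control and 38, 53 and 58 in undifferentiated LIGHT libraries. After differentiation they were 113, 0 and 0 in the libraries labelled control 1, 2 and 3, and 0, 148 and 122 in those labelled LIGHT 1, 2 and 3. The libraries labelled differentiated control 1 and differentiated LIGHT 1 therefore go against their labels. Tests and count ratios of the members, and counts over the pooled gene lists, are also given from the other 10 libraries. Levels of the members, and counts for single lists and for markers, are from all 12 libraries unless stated otherwise. Some counts for single lists differed in the 10 libraries. The cell type was checked with fixed markers. All 8 adipocyte markers (Adipoq, Fabp4, Plin1 and others) were listed, and their summed level was 72.5 to 104 CPM per library before and 14700 to 20600 CPM after differentiation. The 8 preadipocyte and fibroblast markers summed to 8330 to 13500 CPM in all 4 groups, mostly of Col1a1 and Col3a1, but 5 of the 8 fell and 1 rose with differentiation in each line (median log2 -0.76 in control and -0.98 in LIGHT cells). Acta2, for example, had a mean of 1810 CPM in undifferentiated and 211 CPM in differentiated control cells. Skeletal muscle, which also takes up glucose through GLUT4, was checked with 8 markers. Myod1 and Myf5 were listed in no library, and Myog and Ckm had at most 1 count. The summed level of the muscle markers was 7.08 to 29.7 CPM, mostly of Des. Mean Des was 6.78 CPM before and 20.8 after differentiation in control cells, and 6.25 and 18.6 CPM in LIGHT cells. Summed levels reached at most 19.3 CPM for 8 leukocyte markers (Emr1 and Cd3e listed in none), 2.97 for 5 endothelial and 0.972 for 5 hepatocyte markers (Ttr and Tat in none).

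With differentiation every tested member was higher, in both lines. In control cells 8 of 8 passed the threshold (adjusted p under 0.05 in edgeR's quasi-likelihood test) and all 8 were higher, where 63.9% of all tested genes passed and 32.2% passed as higher. In LIGHT cells 8 of 8 were higher too, where 58.6% of genes passed and 29.5% as higher. For none of the 8 did the stages overlap, as for 67.7% of genes in control and 66.6% in LIGHT cells. Log2 fold changes of members had a median of 1.66 in control and 1.48 in LIGHT cells, against 0.0 and -0.004 over all genes. Without the 2 libraries the same 8 were called in each line (70.7% and 64.1% of genes called, 35.8% and 32.3% as higher, and 79.2% and 76.2% without overlap), with medians of 1.78 and 1.46. With library totals as the scaling of these 10 libraries, 40.2% instead of 50.6% of all genes called in control cells were higher. These 8 calls in each line held under every alternative run. Slc2a4 passed the low-count filter only through the differentiated libraries, so its call is partly fixed by the filter, and the counts without it are 7 of 7. The 2 comparisons share no libraries. Differentiation and the agents present in the medium cannot be told apart. In such bulk RNA, a change in the share of cells that became adipocytes and a change of RNA per cell cannot be told apart either; the markers above moved with the stage, and their part in these results was not tested.

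**Figure D1:**
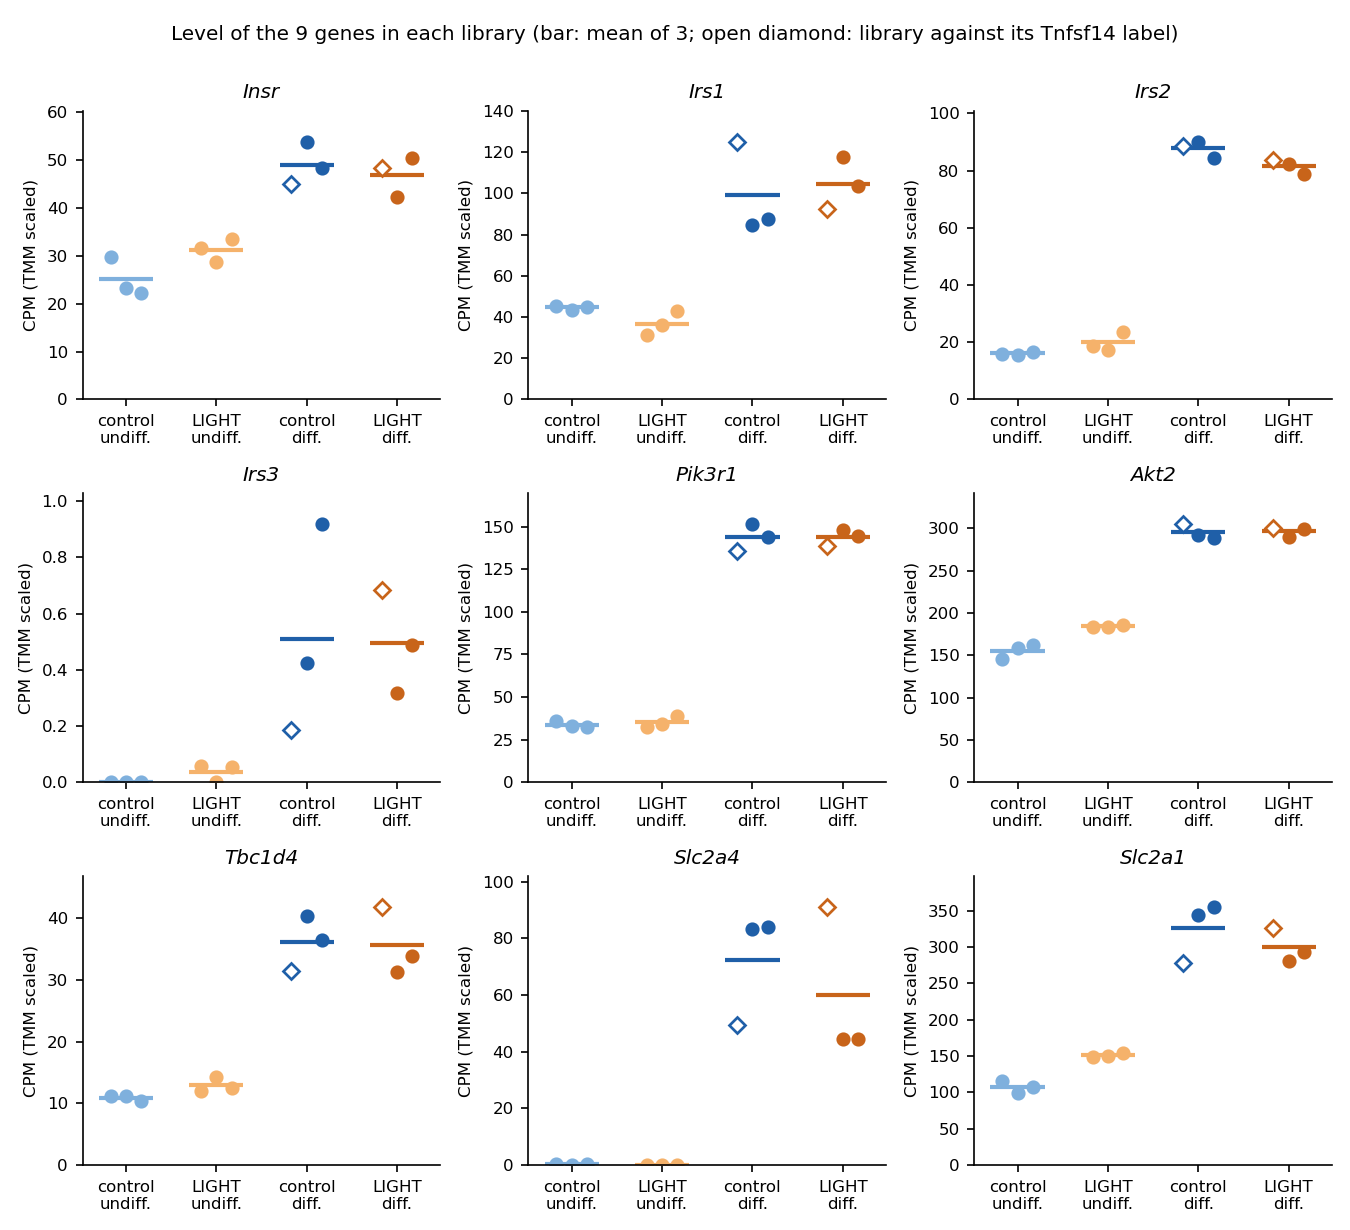
Level of each of the 9 genes in every library, in CPM on a linear axis from 0, by group (undiff., undifferentiated; diff., differentiated). Bars are means of 3 libraries and open diamonds the libraries labelled differentiated control 1 and LIGHT 1. For all 9 genes every differentiated library lay above every undifferentiated one, and for Slc2a4 the 2 diamonds lay on the far side of the other libraries of their group.

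Insr, the receptor, had the smallest rises with Akt2. Its level was 29.8, 23.4 and 22.3 CPM in undifferentiated and 45.0, 53.9 and 48.3 CPM in differentiated control libraries (log2 fold change 0.96, SE 0.12, adjusted p = 1.22e-05, edgeR), and 31.6, 28.8 and 33.6 CPM then 48.3, 42.3 and 50.4 CPM in LIGHT libraries (0.58, SE 0.12, adjusted p = 0.000802). Stages did not overlap in either line, and the change was between 1.5-fold and 1.95-fold.

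Of the 2 adaptors tested, Irs2 rose more. It went from 15.9, 15.6 and 16.7 to 88.5, 90.2 and 84.5 CPM in control cells, 5.45-fold (log2 2.45, SE 0.10, adjusted p = 5.73e-10, edgeR), and from 18.8, 17.4 and 23.5 to 83.7, 82.4 and 78.8 CPM in LIGHT cells, 4.1-fold (log2 2.04, SE 0.09, adjusted p = 2.97e-09). The 6 differentiated libraries lay within a narrow band whatever their label. Irs1, which in many cells is the main adaptor beside Irs2, was 45.4, 43.5 and 45.0 CPM before and 125.1, 84.5 and 87.7 CPM after differentiation in control cells (log2 1.15, SE 0.15), and 31.1, 35.9 and 43.1 CPM before and 92.2, 117.6 and 103.5 CPM after in LIGHT cells (log2 1.51, SE 0.15). Irs1 spread more than Irs2 among differentiated libraries, and its highest value was in the library labelled control 1. Irs3, an adaptor described in rodent fat cells, stayed close to the floor. Its counts were 0, 0 and 0, then 3, 7 and 17, in control and 1, 0 and 1, then 11, 6 and 8, in LIGHT libraries. Every differentiated library held at least 3 counts and no undifferentiated one more than 1, so the summed counts after differentiation were at least 9.21-fold higher in control cells than a group floor of 3 counts (11.9-fold without the library labelled control 1). In LIGHT cells the ratio was 13.3 (exact 95% counting interval 3.31 to 116), or 10.8 (2.49 to 98.1) without the library labelled LIGHT 1. These intervals cover counting error only.

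The 3 steps between the adaptors and the vesicle all rose. Pik3r1, which encodes the p85α regulatory subunit of phosphoinositide 3-kinase, went from 36.2, 33.1 and 32.1 to 135.6, 151.3 and 144.1 CPM in control cells (log2 2.09, SE 0.08, adjusted p = 3.82e-10, edgeR) and from 32.3, 34.2 and 38.7 to 138.7, 147.9 and 144.2 CPM in LIGHT cells (log2 2.03, SE 0.08). It was the member with the closest values between lines. Akt2, the AKT isoform tied to insulin action in fat, had 145.4, 158.5 and 162.2 CPM before and 304.6, 292.6 and 288.7 CPM after differentiation in control cells (log2 0.93, SE 0.06), and 183.0, 183.8 and 185.8 CPM then 300.1, 290.0 and 299.0 CPM in LIGHT cells (log2 0.69, SE 0.06). Its differentiated libraries spanned 288.7 to 304.6 CPM over both lines. Tbc1d4, the AKT substrate that restrains GLUT4 vesicles, went from 11.2, 11.2 and 10.4 to 31.5, 40.4 and 36.5 CPM in control cells (log2 1.72, SE 0.13) and from 12.0, 14.4 and 12.5 to 41.8, 31.3 and 33.9 CPM in LIGHT cells (log2 1.46, SE 0.13). The adjusted p of these 6 differences lay between 3.82e-10 and 7.74e-07.

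The GLUT4 gene Slc2a4 changed from near absence to a clear level. Its counts were 4, 2 and 4 before and 794, 1378 and 1554 after differentiation in control cells, and 1, 0 and 0, then 1460, 842 and 727, in LIGHT cells. The ratio of summed counts was 381 in control cells (exact 95% counting interval 207 to 795), or 438 (238 to 913) without the library labelled control 1. In LIGHT cells it was 3220 (578 to 127000), or 2430 (435 to 95900) without the library labelled LIGHT 1, both against a single undifferentiated count. The GLUT1 gene Slc2a1 was already high. It rose from 115.6, 99.7 and 107.2 to 278.5, 344.0 and 354.7 CPM in control cells, 3.03-fold (log2 1.60, SE 0.10, adjusted p = 2.16e-08, edgeR), and from 148.0, 150.2 and 154.6 to 326.6, 281.1 and 292.6 CPM in LIGHT cells, 1.99-fold (log2 0.99, SE 0.09, adjusted p = 1.85e-06). Both transporter genes were thus higher after differentiation in both lines, with Slc2a1 the more abundant per length. In the 10 libraries the log2 rises in control cells were 2.46 for Irs2, 2.15 for Pik3r1, 1.84 for Tbc1d4, 1.72 for Slc2a1, 1.04 for Insr, 0.97 for Irs1 and 0.93 for Akt2. In LIGHT cells they were 2.06 for Pik3r1, 2.02 for Irs2, 1.60 for Irs1, 1.33 for Tbc1d4, 0.93 for Slc2a1, 0.68 for Akt2 and 0.57 for Insr. Among these 7 members, the value that differed most from that of the 12 libraries was Irs1 in control cells, 0.97 against 1.15.

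Per length, in the deposited FPKM (fragments scaled by gene length and library total), the order of the members differed between stages. In undifferentiated control cells Akt2 (53.1 ± 2.72, SD, n = 3) and Slc2a1 (46.3 ± 3.49) stood far above Pik3r1 (5.18 ± 0.357), Irs1 (5.15 ± 0.106), Irs2 (4.33 ± 0.117), Insr (2.84 ± 0.478) and Tbc1d4 (1.75 ± 0.095), with Slc2a4 at 0.0733 ± 0.0289 and Irs3 at 0 counts. Akt2 overlapped Slc2a1, and Pik3r1 overlapped Irs1. In differentiated control cells the order was Slc2a1 (129 ± 13.8), Akt2 (94.4 ± 4.72), Slc2a4 (25.9 ± 6.67), Irs2 (21.8 ± 1.08), Pik3r1 (20.6 ± 0.882), Irs1 (10.6 ± 2.67), Tbc1d4 (5.33 ± 0.581), Insr (5.11 ± 0.412) and Irs3 (0.22 ± 0.157). Slc2a4, Irs2 and Pik3r1 overlapped one another there, as did Tbc1d4 and Insr. The lowest Slc2a4 value, 18.2 FPKM, was in the library labelled control 1, and the other 2 stood at 29.9 and 29.5. Slc2a1 lay above Akt2 in each differentiated control library.

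**Figure D2:**
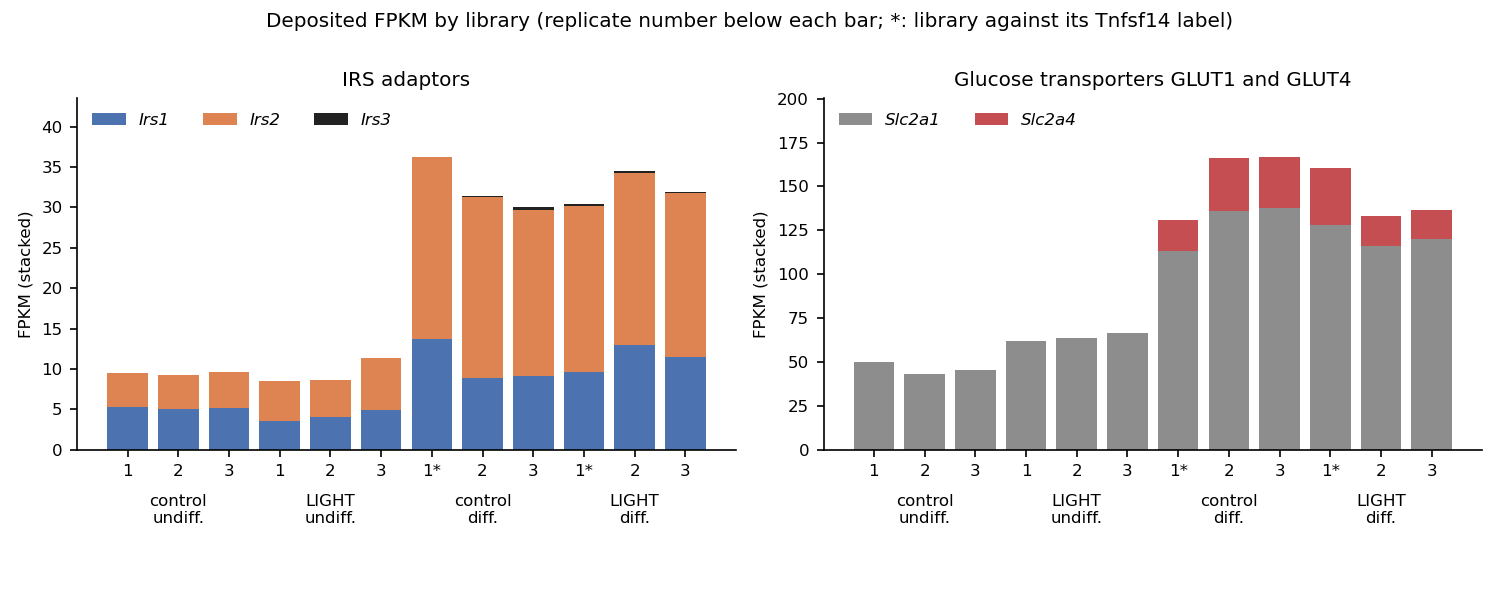
Deposited FPKM of the IRS genes (left) and of Slc2a1 and Slc2a4 (right), stacked for each library on a linear axis from 0; numbers under the bars are replicates and asterisks mark the libraries labelled differentiated control 1 and LIGHT 1. Irs2 makes up 61.8% to 70.9% of the IRS bar in differentiated libraries and Slc2a4 12.1% to 20.2% of the transporter bar.

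Shares within gene families moved with the stage. Irs1 made up 49.2% ± 5.88 of summed IRS FPKM in the 6 undifferentiated and 33.6% ± 3.96 in the 6 differentiated libraries (SD), and Irs2 50.7% ± 5.74 and 65.7% ± 3.72. Every differentiated library had a larger Irs2 share than every undifferentiated one. The share of Irs3 was 0.103% ± 0.162 before and 0.705% ± 0.386 after. Slc2a4 rose from 0.0835% ± 0.088 to 15.7% ± 3.34 of the summed FPKM of Slc2a1 and Slc2a4. Pik3r1 rose from 5.16% ± 1.31 to 19.8% ± 2.52 of the 3 regulatory subunit genes Pik3r1, Pik3r2 and Pik3r3. Akt1, the widely expressed isoform beside Akt2, had 205 to 232 FPKM before and 124 to 159 after differentiation. Pik3r2 stayed the most abundant subunit gene in every library, with 66.6 to 117 FPKM. An exact two-sided permutation test of 6 against 6 libraries gave p = 0.002165 for each of these shares but that of Irs3, the smallest it can give (adjusted p = 0.007792 over 18 tests of shares), and p = 0.006494 for Irs3 (adjusted 0.01948). Without the 2 libraries the adjusted p of each of these shares was 0.02857, and the Irs2 share rose by 15.4 points and the Irs3 share by 0.653 points.

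Before differentiation LIGHT cells had slightly more RNA of 3 members than control cells. Slc2a1 was 1.4-fold higher (log2 0.49, SE 0.09, adjusted p = 0.00279, edgeR), with 148.0 to 154.6 CPM against 99.7 to 115.6. Akt2 was 1.19-fold higher (log2 0.25, SE 0.06, adjusted p = 0.00804) and Irs2 1.24-fold (log2 0.31, SE 0.10, adjusted p = 0.0362). The Irs2 call was lost with library totals (adjusted p = 0.051) and when 1 undifferentiated library was dropped, which held for each of control 1, 2 and 3 and for LIGHT 1 and LIGHT 3 (adjusted p = 0.0503 to 0.132), and without LIGHT 3 its log2 value was 0.17. That makes 3 of 8 members called, all higher, beside 26.5% of all genes called and 12.3% called higher. Libraries of the 2 lines did not overlap for 6 of 8 members, as for 52.3% of genes. Insr (log2 0.32, 95% interval 0.06 to 0.57, adjusted p = 0.0654), Tbc1d4 (0.25, -0.04 to 0.53, 0.187), Irs1 (-0.28, -0.62 to 0.06, 0.201) and Pik3r1 (0.05, -0.12 to 0.23, 0.662) did not pass. Without undifferentiated control 1, which had the highest Insr of its group, Insr passed (log2 0.46, adjusted p = 0.0158). In a fit of the 2 undifferentiated groups alone Insr (0.33, adjusted p = 0.0158) and Irs1 (-0.26, adjusted p = 0.0297) passed. Slc2a4 counts summed to 1 in LIGHT and 10 in control libraries, a ratio of 10.4 with a counting interval from 1.49 to 455, and the difference did not pass in edgeR (adjusted p = 0.304) but passed in DESeq2 (0.0417).

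The 2 libraries that go against their labels are not in this contrast but enter the estimate of spread that all groups share. With them left out 7 of 8 members passed, beside 44.4% of all genes (22.3% higher and 22.1% lower). Slc2a1 (log2 0.50), Insr (0.33), Irs2 (0.32), Tbc1d4 (0.26) and Akt2 (0.26) were then called higher in LIGHT cells and Irs1 (-0.27) and Slc2a4 lower, while Pik3r1 (0.07) was not called. Slc2a1 and Akt2 passed in all 10 settings tried with these libraries, which were chosen after the data were seen. The Tbc1d4 call was lost in 7 of them, among them RLE scaling (adjusted p = 0.0519), and in the leave-outs of undifferentiated control 1, 2 and 3 and LIGHT 2 (0.0619 to 0.2). Insr was lost without control 2, control 3 or LIGHT 3 (0.0617 to 0.0792), Irs1 without control 1, LIGHT 1 or LIGHT 2 (0.0508 to 0.125, with a log2 value of -0.17 without LIGHT 1), Irs2 without LIGHT 3 (0.0909, log2 0.18) and Slc2a4 without LIGHT 2 (0.0518).

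After differentiation no member passed the test between the lines as labelled. Of 8 members 0 passed in edgeR, where 0.0% of all genes did, 523 genes had an unadjusted p under 0.05, and DESeq2 called 1 gene and 0 members. The lines did not overlap for 1 member, Irs2, as for 6.77% of genes. The intervals were narrow for Akt2 (log2 0.01, 95% interval -0.12 to 0.13) and Pik3r1 (-0.0006, -0.16 to 0.16) and wide for Slc2a4 (-0.27, -0.84 to 0.29) and Irs1 (0.08, -0.25 to 0.40). The libraries of Slc2a4 fell into a high and a low set. It stood at 49.4, 83.4 and 83.9 CPM in the libraries labelled control 1, 2 and 3, and at 91.0, 44.4 and 44.3 CPM in those labelled LIGHT 1, 2 and 3. The 2 libraries whose Tnfsf14 goes against the label were the ones apart from the others of their group, and the same held for Tbc1d4 and Slc2a1.

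In the other 10 libraries 3 of 8 members differed after differentiation, beside 31.0% of all genes (14.6% higher and 16.4% lower), and 5 did not overlap, beside 67.1% of genes. With library totals 66.0% instead of 47.1% of all calls were higher. Slc2a4 was 1.89-fold lower in LIGHT cells, 44.4 ± 0.111 against 83.7 ± 0.313 CPM (SD, n = 2 each; log2 -0.92, SE 0.09, adjusted p = 2.71e-07, edgeR). Slc2a1 was 1.22-fold lower (287 ± 8.11 against 349 ± 7.57 CPM; log2 -0.29, SE 0.06, adjusted p = 0.00136). Irs1 was 1.28-fold higher (111 ± 9.97 against 86.1 ± 2.21 CPM; log2 0.35, SE 0.10, adjusted p = 0.00898). The fold of Slc2a4 thus moved from 1.21-fold to 1.89-fold with the 2 libraries left out. Tbc1d4 (log2 -0.25, 95% interval -0.46 to -0.03, adjusted p = 0.0787), Insr (-0.15, -0.39 to 0.09), Irs2 (-0.12, -0.31 to 0.07), Pik3r1 (-0.02, -0.18 to 0.13) and Akt2 (0.01, -0.11 to 0.13) did not pass. Slc2a4 and Slc2a1 passed in all 8 settings tried with these libraries, with log2 values from -0.94 to -0.84 and from -0.32 to -0.21. Irs1 was lost without differentiated control 2 (log2 0.32, adjusted p = 0.0793) and without LIGHT 2 (0.26, 0.141). With a library left out 1 group holds a single library, assumed to vary like the others. In the same contrast 5 of 8 adipocyte markers were lower and 0 higher, with a median log2 of -0.34, and their part in the Slc2a4 difference was not tested.

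The size of the rise with differentiation differed between the lines for Slc2a1. Its interaction term, the rise in LIGHT cells minus that in control cells, was -0.61 in log2 (SE 0.13, adjusted p = 0.0141, edgeR), the only member of 8 called, beside 9.34% of all genes called and 4.26% with a negative term. Over these 12 libraries Irs1 passed as well without the library labelled differentiated control 1 (0.55, adjusted p = 0.0393), Irs2 without undifferentiated LIGHT 2 (-0.50, 0.0429), and Irs2 and Akt2 in DESeq2 (0.0475 and 0.0201). For Slc2a1 the LIGHT libraries lay above the control libraries before differentiation, and the lines as labelled overlapped after it. In the 10 libraries the Slc2a1 term was -0.79 (SE 0.08, adjusted p = 6.76e-07) and 6 of 8 members were called, beside 31.0% of genes (14.9% positive and 16.1% negative; with library totals 65.3% instead of 48.1% of all calls were positive). Irs1 rose more in LIGHT cells (0.62, SE 0.13, adjusted p = 0.00122), and Tbc1d4 (-0.50, SE 0.14, 0.0115), Irs2 (-0.44, SE 0.13, 0.0154), Akt2 (-0.25, SE 0.07, 0.0157) and Insr (-0.48, SE 0.15, 0.0233) rose less. Pik3r1 was not called (-0.09, 95% interval -0.30 to 0.13), and the Slc2a4 term (2.04, adjusted p = 0.111) rests on 1 against 10 undifferentiated counts, and passed without undifferentiated LIGHT 1, which held that count (3.89, adjusted p = 0.0433). Slc2a1 and Irs1 passed in all 14 settings tried with these libraries. Akt2 and Tbc1d4 passed in 12, Irs2 in 11 and Insr in 8, with calls lost under library totals for Akt2 (-0.14), Irs2 (-0.34) and Insr (-0.38). The libraries that decided them are differentiated LIGHT 2 for Akt2 (adjusted p = 0.085), differentiated control 2 or LIGHT 2 for Tbc1d4 (0.0658 and 0.0646), differentiated control 2 or LIGHT 3 for Irs2 (0.0573 and 0.0581) and any of 5 libraries for Insr (0.053 to 0.145), namely undifferentiated control 2 and 3 and LIGHT 3 and differentiated control 2 and LIGHT 2.

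**Figure D3:**
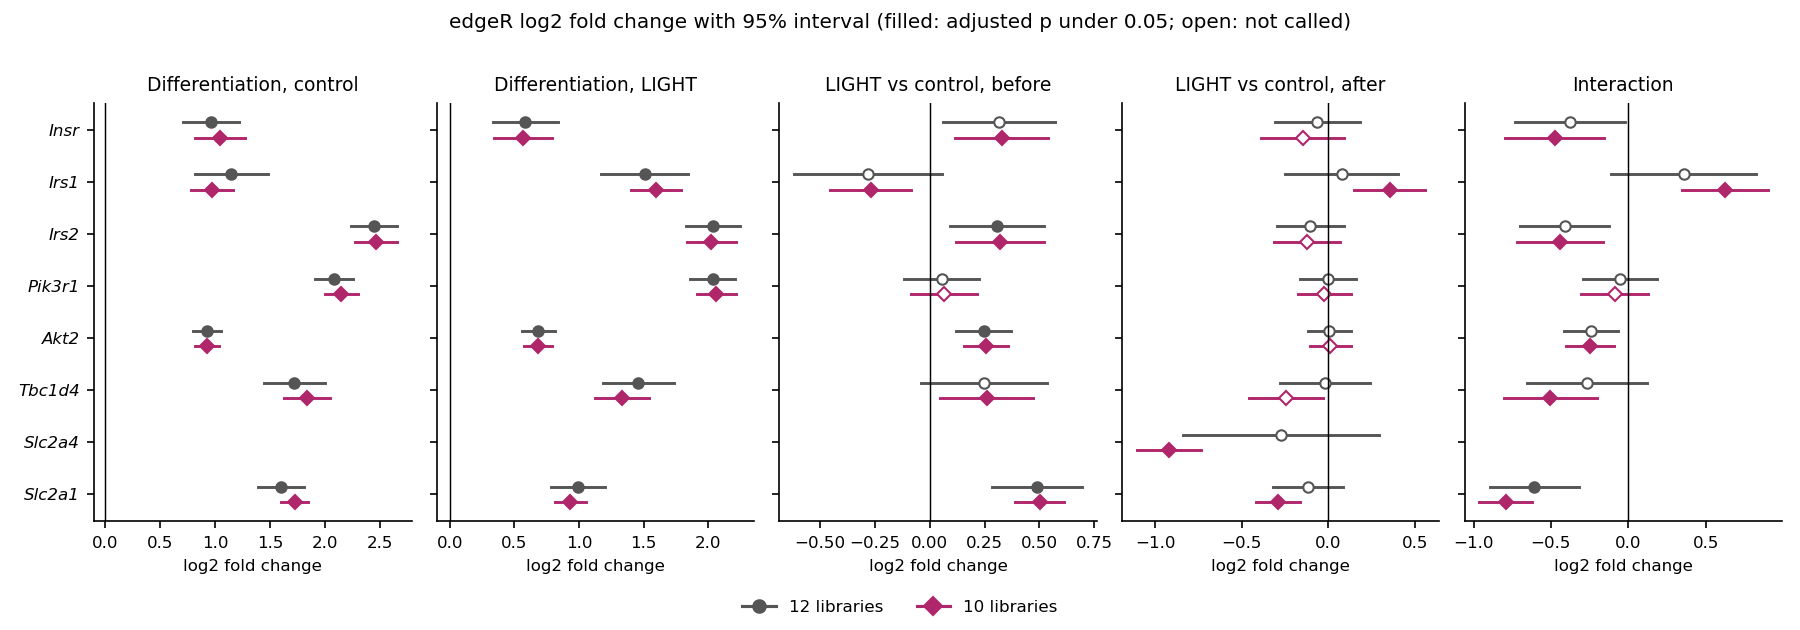
Log2 fold change of each tested member (rows) in the 5 comparisons (panels), with 95% intervals, from all 12 libraries (grey circles) and from the 10 without the pair that goes against its labels (purple diamonds); filled points passed the threshold. Slc2a4 is drawn only for the lines after differentiation, since its undifferentiated libraries held at most 4 counts. Differentiation values are all above 0, and Slc2a4 moves from -0.27 to -0.92 in the fourth panel.

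Shares were compared between lines with the exact permutation test, which cannot give p below 0.1 for 3 against 3 libraries or below 0.333 for 2 against 2. Before differentiation the Irs1 share was 44.1% ± 2.75 in LIGHT and 54.3% ± 0.743 in control cells (SD, n = 3, exact p = 0.1), and the Pik3r1 share 4.06% ± 0.381 and 6.26% ± 0.727 (exact p = 0.1), without overlap. Pik3r2, which encodes another regulatory subunit, was 1.64-fold higher in LIGHT cells there (log2 0.71, adjusted p = 0.000824, edgeR). After differentiation, in the 10 libraries, Slc2a4 was 12.3% ± 0.328 of the transporter pair in LIGHT and 17.8% ± 0.251 in control cells (SD, n = 2, exact p = 0.3333).

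The wider pathway, 95 genes in 6 lists of which 84 were tested, moved in both directions. In control cells 32 were higher and 20 lower after differentiation, and in LIGHT cells 27 and 18, with medians of 0.05 and 0.04 in log2, where 63.9% and 58.6% of all genes were called and 32.2% and 29.5% called higher. Called genes were therefore about as frequent among the 84 as among all genes. With library totals in place of TMM scaling the median of all genes in control cells was -0.113 instead of 0.0, and 29 of 58 called pathway genes were higher instead of 32 of 52 (23 of 47 instead of 27 of 45 in LIGHT cells). In the 10 libraries 38 rose and 20 fell in control and 32 and 19 in LIGHT cells, with 30 of 64 and 27 of 52 calls higher under library totals. Of 15 further receptors and adaptors tested 6 rose and 6 fell in control cells (median -0.04), beside 63.9% of all genes called and 32.2% called higher. Sh2b2, the APS adaptor that binds the receptor, rose 15.6-fold in LIGHT cells (log2 3.97). In control cells the docking protein Dok1 fell by 1.55 and Igf1r, the receptor of insulin-like growth factor 1, by 1.19 in log2.

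Of 14 other genes of phosphoinositide 3-kinase and AKT complexes 1 rose and 6 fell in each line (medians -0.12 and -0.21), beside 63.9% and 58.6% of all genes called and 32.2% and 29.5% called higher in control and LIGHT cells. Pik3cd, a catalytic subunit best known from leukocytes, fell by 2.06 and Pik3c2a by 0.90 in log2 in control cells, and Pdpk1, the kinase that activates AKT, rose by 0.33. Of 14 brakes on the pathway 2 rose and 4 fell in control and 2 and 5 in LIGHT cells, beside the same shares of all genes. Grb14, an inhibitor of the receptor, fell by 1.71 in log2 in control cells.

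Of 13 genes of proteins that act below AKT, directly or further down (the mTORC1 branch and glycogen synthase among them), 10 rose in control and 9 in LIGHT cells, and 0 fell (medians 0.49 and 0.27). Over all genes 63.9% and 58.6% were called and 32.2% and 29.5% called higher, which also stand beside the next 2 counts. Pde3b, the phosphodiesterase through which insulin restrains lipolysis, went from 21.9 to 117 CPM (log2 2.42) and the glycogen synthase gene Gys1 from 93.9 to 451 CPM (log2 2.26) in control cells. Of 21 genes of GLUT4 vesicle traffic 8 rose and 3 fell in control and 6 and 2 in LIGHT cells (medians 0.07 and -0.02). Sort1, the sortilin that helps form GLUT4 vesicles, rose 22.6-fold in control cells (log2 4.50, adjusted p = 3.69e-11), and Ralgapa2, a subunit of a GTPase activator for Ral, 6.99-fold (2.80). Among 7 tested transporters and hexokinases 5 rose and 1 fell in control and 4 and 1 in LIGHT cells (medians 0.82 and 0.42). The gene that fell had at most 5 counts in any differentiated library. It passed the low-count filter only through undifferentiated libraries, so its fall is partly fixed by the filter. In the 10 libraries 0 of the 7 were called lower in control cells. Hk2, the hexokinase of insulin-sensitive tissue, went from 33.4 to 175 CPM (log2 2.39, adjusted p = 1.96e-07). The members and these genes were read in the same libraries, and the choice of members is not a sample of the pathway. Members and lists were both chosen with earlier results of these data known.

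**Figure D4:**
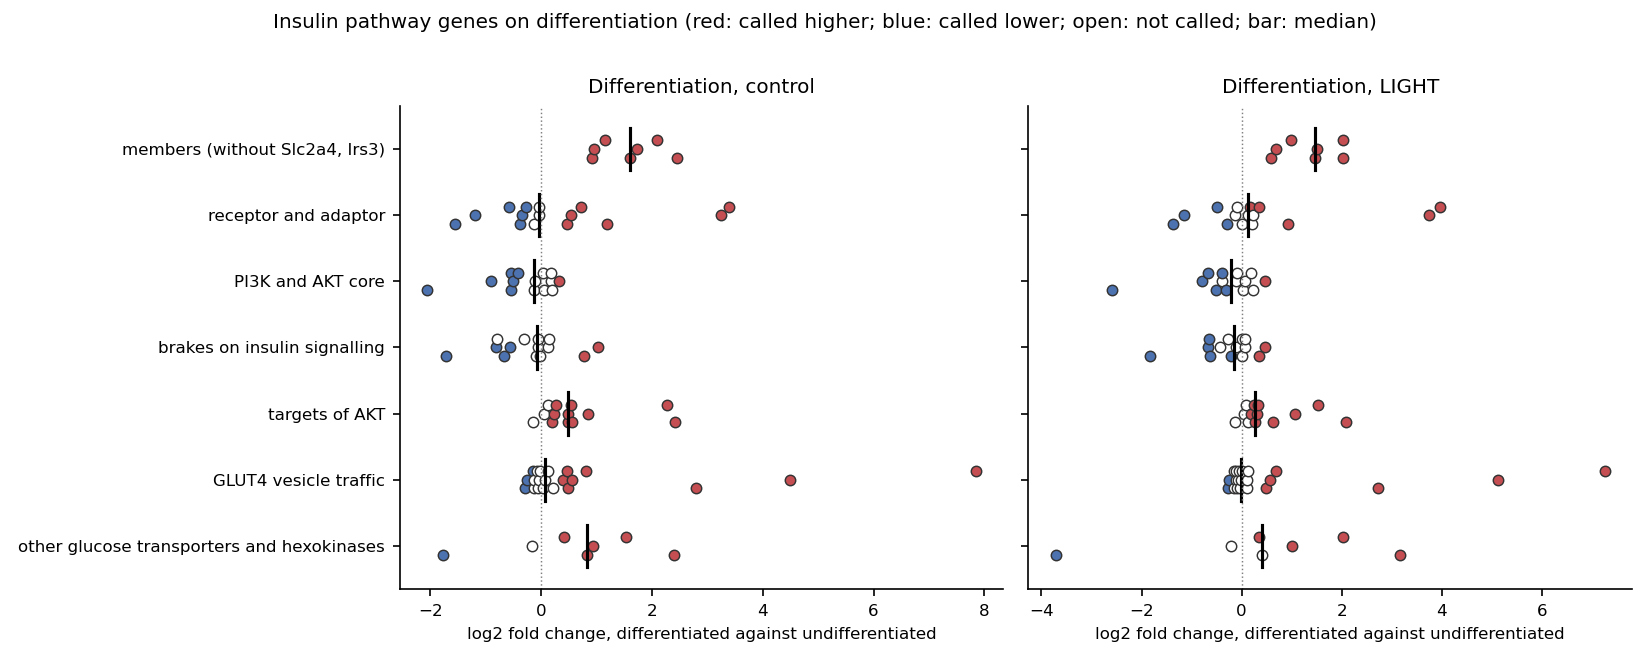
Log2 fold change with differentiation of the 7 members with enough undifferentiated counts (top row) and of the genes in the 6 lists, in control (left) and LIGHT cells (right), from 12 libraries. Red points were called higher, blue lower and open points neither, and bars are medians. Each list has genes on both sides of 0, and in the list labelled targets of AKT, direct or further down, 0 were called lower.

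Between the lines 15 of these 84 genes were higher and 13 lower in LIGHT cells before differentiation, 0 passed after it, and 1 and 6 had a positive and a negative interaction term, beside 26.5%, 0.0% and 9.34% of all genes called. Before differentiation Pde3b was higher (log2 0.80, adjusted p = 1.5e-05, edgeR) and Hk2 lower (-0.94, adjusted p = 0.00358). In the 10 libraries the counts were 26 and 18 before, 12 and 21 after and 9 and 19 for the interaction, beside 44.4%, 31.0% and 31.0% of all genes called. With library totals 19 of 34 calls after differentiation were higher instead of 12 of 33, and 14 of 28 interaction calls positive instead of 9 of 28. After differentiation the genes lower in LIGHT cells included Tusc5 (the Trarg1 gene, which encodes a regulator of GLUT4 traffic; 116 against 201 CPM, log2 -0.80, adjusted p = 2.55e-08), Gys1 (-0.64), Hk2 (-0.57) and Foxo1 (-0.50). Those higher included the regulatory subunits Pik3r3 (0.91, adjusted p = 6.71e-07) and Pik3r2 (0.36).

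By Pearson's r of log2 CPM over the 12 libraries, 9958 genes were compared with 3 of the members. These were the genes whose mean reached 5 CPM, without symbols of predicted genes. For Slc2a4 the most alike genes included the lipase inhibitor Angptl4 (r = 0.9984) and the glutaredoxin Glrx (0.9983). Slc2a1 was closest to Igfbp5 (0.9973), Peli2 (0.9967) and Tob1 (0.9958), and Irs2 to the calcium channel gene Cacna1g (0.9973), Itsn1 (0.9969) and Gprc5b (0.9967). All 12 points share the division into 2 stages and the same libraries, so these values describe the pattern and carry no test.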

How the data were processed

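RNA libraries of 12 samples were sequenced on an Illumina HiSeq, per the series' design text, and each has 1 table with a row per gene. The authors deposited expected counts, estimates that need not be whole, and FPKM values scaled by gene length and library total, per the file headers. Gene lengths are another deposited column and differ slightly between libraries. The submitters' processing notes name mm8 as the build. The sources used here do not name the aligner, the counting program or any use of strand, so overlapping or near-identical genes can share reads. A gene absent from a table was read as 0.

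Expected counts were rounded and fitted for all 12 libraries at once, by line and stage, with edgeR 4.0.16 (R 4.3.3): TMM scaling, filterByExpr with a minimum count of 10, quasi-likelihood test, and Benjamini-Hochberg adjustment over 12993 genes (13150 in the repeat without the libraries labelled differentiated control 1 and LIGHT 1). CPM are TMM scaled. Shares come from the deposited FPKM and were tested with exact two-sided permutation tests (scipy 1.17.1). Count ratios have exact 95% intervals, with a floor of 3 counts over a group; intervals cover counting error only, since PCR copies are not independent molecules. The fits were tested on simulated data in which few genes changed, in a single group, with the same spread for all genes. That check does not cover comparisons in which most genes were called. Replicate numbers did not enter the fits. As alternatives, library totals and RLE scaling replaced TMM, DESeq2 1.42.0 replaced edgeR, and other fits used no filter, a minimum count of 50, a fit of the compared groups alone, a replicate block, and leaving out each library; further settings for the 10 libraries were chosen after seeing the data. Named genes are the 9 members, for each list and contrast up to 2 genes called higher and 2 lower with the smallest p, Akt1, Pik3r2 and Pik3r3, and the 3 genes most like Slc2a4, Slc2a1 and Irs2; none was sought for Irs3, which was not tested. The members and lists were chosen with earlier results of these data known. A planned comparison of protein sequences was not run. Some genes that this rule names are not reported here.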

Additional observations from a re-analysis of the deposited data

Results flagged for a closer look

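The rise of Slc2a1 with differentiation differed between the lines over all 12 libraries, with an interaction term of -0.61 in log2 (edgeR, adjusted p = 0.0141). Of all genes, 9.34% were called there. The repeat left out the libraries labelled differentiated control 1 and LIGHT 1, whose Tnfsf14 goes against their labels. There the term passed for 6 of 8 members, beside 31.0% of all genes. It was -0.79 for Slc2a1, 0.62 for Irs1, -0.5 for Tbc1d4, -0.48 for Insr, -0.44 for Irs2 and -0.25 for Akt2, with adjusted p from 6.76e-07 to 0.0233. Leaving out 1 library gave Slc2a1 terms from -0.72 to -0.55 over the 12 libraries. In the repeat, leaving out 1 more gave -0.85 to -0.74 for Slc2a1, 0.52 to 0.76 for Irs1 and -0.62 to -0.35 for Insr. It gave -0.58 to -0.43 for Tbc1d4, -0.53 to -0.3 for Irs2 and -0.27 to -0.2 for Akt2. The calls of Tbc1d4, Insr, Irs2 and Akt2 were lost in some of the settings given above.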

How the results depend on the processing

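Between the lines before differentiation 3 members, 28 pathway genes and 3446 genes in all were called. A fit of the 2 undifferentiated groups alone gave 5, 43 and 5601, and the repeat without the libraries labelled differentiated control 1 and LIGHT 1 gave 7, 44 and 5836; leaving out 1 library gave 2238 to 2611 genes. After differentiation 0, 0 and 0 were called; the repeat gave 3, 33 and 4079, and DESeq2 gave 1 gene in all. For the interaction 1, 7 and 1214 were called. The repeat gave 6, 28 and 4079, DESeq2 gave 3 members, and leaving out 1 library gave 1 to 2 members and 675 to 1868 genes. The cause was not tested.

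Deviations from the group means of same-numbered libraries correlated at -0.046 to 0.097 across genes, except between the differentiated groups. There the value was -0.618 for the libraries numbered 1, whose Tnfsf14 goes against their labels, -0.34 for number 2 and -0.292 for number 3. The part of the libraries numbered 1 in these values was not tested. Differently numbered libraries were not compared, so whether the numbers pair the libraries was not tested. With the replicate block 747 genes were called in the interaction, and among members the Irs2 call before differentiation was lost (log2 0.30, adjusted p = 0.0628).

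Values near 0 after differentiation changed sign. Pik3r1 was 0.028 with library totals, 0.0023 without a filter and 0.0016 in a fit of the 2 groups alone, and Tbc1d4 was 0.0056 with library totals. Leaving out 1 library gave -0.12 to 0.0098 for Insr, -0.024 to 0.28 for Irs1, -0.043 to 0.039 for Pik3r1, -0.0085 to 0.025 for Akt2 and -0.15 to 0.07 for Tbc1d4. It gave -0.023 to 0.11 for Pik3r1 before differentiation, -0.11 to 0.022 for its interaction, and -0.247 to 0.29 points for the Irs3 share between differentiated lines. In the 10 libraries Pik3r1 was 0.06 after differentiation and 0.012 for the interaction with library totals. There, leaving out 1 more library gave -0.07 to 0.0014 for Pik3r1 and -0.0097 (without LIGHT 3), -0.0055 (without control 3), 0.0098 and 0.035 for Akt2 after differentiation, and -0.011 to 0.12 for Pik3r1 before it. No group of 4 or more libraries exists, Irs3 and undifferentiated Slc2a4 are limited by counts of 4 or fewer before differentiation, and 2 libraries a group in the repeat give the spread little basis of its own.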
